A study of Mus musculus with 12 samples.

Results

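The deletion of the glucocorticoid receptor was followed in Paneth cells, the granule-filled secretory cells at the base of the small-intestinal crypt. The comparison sets 3 GRKO Paneth libraries against 3 WT Paneth libraries, which are 6 of the 12 RNA-seq libraries in the series. The members were taken by the names of the count columns and the sample titles. All mice were adult naive mice of the C57BL/6J strain. The WT mice carry a functional receptor gene, and the GRKO mice are described as GRvillinKO, which names villin, a gene used throughout the intestinal epithelium, as the driver of the deletion. The deletion is therefore not limited to Paneth cells, and the other sorted crypt cells of the same genotypes (3 GRKO and 3 WT non-Paneth libraries) carry it too. The Paneth gate took crypt cells positive for CD24 and cKIT, of medium to high side scatter and negative for the endothelial, leukocyte and erythroid markers CD31, CD45 and TER119. The labels do not say that each library came from a separate mouse, so p-values measure the spread between these samples, which may in part be technical.

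The glucocorticoid receptor, encoded by Nr3c1, is a nuclear receptor that waits in the cytoplasm with heat shock protein chaperones, binds cortisol or corticosterone and then moves to the nucleus. There it raises some genes through palindromic response elements and lowers others, among them many inflammatory genes. Paneth cells are professional secretory cells. They make lysozyme and alpha defensins in bulk, and therefore depend on an extended endoplasmic reticulum (ER), on vesicle transport to the Golgi and on granules that hold antimicrobial proteins and zinc.

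The 6 Paneth libraries held between 11126297 and 13965973 counts. Lyz1 and the Defa genes together took 37.4 to 46.9% of the counts, against 0.0348 to 0.139% in the non-Paneth libraries, so that the sorted fraction carried its defining genes. Levels are given as TMM-normalised CPM, that is, counts scaled to a common library size after a correction for composition. Fold changes are log2 values with their SE from an edgeR quasi-likelihood fit over all 12 libraries, and a gene is called when its p, after Benjamini-Hochberg adjustment over 13057 genes, is under 0.05. The WT Paneth replicate 1 library stood apart from the other 5. Mitochondrial genes took 2.48% of its counts and 0.779 to 1.26% elsewhere. The summed level of 30 immediate early and dissociation-linked genes was 2923, 1513 and 1373 CPM in the WT libraries and 1081, 1076 and 1249 CPM in the GRKO libraries. For many lists, though not for all, the median is therefore also given with that library omitted. Xist, the X-inactivation transcript, was read in WT Paneth replicate 2 at 126.5 CPM of library totals and at no more than 0.223 CPM in the other Paneth libraries. Y-linked genes were at 0.973 CPM in WT Paneth replicate 2 and at 53.8 to 77.5 CPM in the others. These values read as female in that library and male in the others, so sex was not balanced between the genotypes. The part of sex in the results was not tested.

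The test called 420 of 13057 genes (3.22%), of which 222 were higher (1.70%) and 198 lower (1.52%) in GRKO Paneth cells. The shares of 1.70% and 1.52% are the background for the members called in each list. The calls stood close to the threshold, with a smallest adjusted p of 0.0331. Without WT Paneth replicate 1 the same procedure called 1 gene, and without GRKO Paneth replicate 2 it called 0, with 2451 and 2062 genes at an unadjusted p under 0.05. The count was 41 when GRKO Paneth replicate 3 was omitted, 86 when this was WT Paneth replicate 2, and 1618 when it was GRKO Paneth replicate 1. Of the 420 genes, which were chosen by their p in these libraries, 417 had 3 GRKO libraries all above or all below the 3 WT libraries. Across all genes tested, 14.2% were higher and 10.2% lower in this way, and at an unadjusted p under 0.05 15.5% were higher and 11.2% lower. The median size of the called changes was 0.69 on the log2 scale, and the median of all genes was 0.03.

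Nr3c1 itself checks the labels. The genotype field of the records gives WT for the GRKO Paneth samples and GRKO for the WT non-Paneth samples, in conflict with their titles, and the titles were used throughout. Nr3c1 (ENSMUSG00000024431, chromosome 18, 39543598 to 39652474, minus strand, GRCm39) was at 40.8, 50.3 and 54 CPM in the WT Paneth libraries and at 7.97, 5.82 and 15.4 CPM in the GRKO Paneth libraries. The levels followed the titles, the groups did not overlap, and 20.2% of the WT level remained (log2 fold change -2.31 ± 0.32, edgeR adjusted p = 0.0331). GRKO Paneth replicate 3 kept the most. In bulk RNA, fewer cells with a transcript and less of it per cell cannot be told apart. In the non-Paneth fraction the log2 fold change was -2.67.

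Sgk1 and Mt1 are receptor targets of long standing, the first a kinase that regulates ion transport and the second a metallothionein, a small cysteine-rich protein that binds zinc and copper. Sgk1 (chromosome 10, 21758083 to 21875802, plus strand, GRCm39) was at 9.87, 14.6 and 10.4 CPM in WT and 2.17, 4.14 and 3.6 CPM in GRKO Paneth cells. It fell to 29.2% of the WT level (log2 fold change -1.78 ± 0.40, edgeR adjusted p = 0.0448). Mt1 (chromosome 8, 94905710 to 94906955, plus strand, GRCm39) went the other way, from 69.8, 52.7 and 41.5 CPM in WT to 116, 132 and 128 CPM in GRKO. Every GRKO library lay above every WT library, and the rise was 2.28-fold (log2 fold change 1.19 ± 0.18, edgeR adjusted p = 0.0331). Mt1 kept its call without WT Paneth replicate 1 (1.41, edgeR adjusted p = 0.00676) and lost it without GRKO Paneth replicate 2 (1.16, edgeR adjusted p = 0.171). Sgk1 and Nr3c1 lost theirs without either of these libraries, with values of -1.88 and -1.97 for Sgk1 and of -2.42 and -2.03 for Nr3c1. Sgk1 also lost its call when GRKO Paneth replicate 3 (-1.83) or WT Paneth replicate 2 (-1.58) was omitted.

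The window from 250 bases before to 50 bases after each RefSeq start (GRCm38.p6) was searched on both strands for the core of a glucocorticoid response element, GNACA and TGTNC with any NNN between them. Of the 9924 tested genes with such a window, 0.363% held it. Mt1 and Sgk1 held it and were the only ones of 20 receptor targets with a window that did. Both are shown because they are the called targets of opposite direction, with the match in capitals. The Mt1 window is chr8:94178959-94179098, plus strand, and ends just after the gene's only listed start. The Sgk1 window is chr10:21993670-21993769, plus strand, upstream of 1 of its 6 listed starts.
Mt1: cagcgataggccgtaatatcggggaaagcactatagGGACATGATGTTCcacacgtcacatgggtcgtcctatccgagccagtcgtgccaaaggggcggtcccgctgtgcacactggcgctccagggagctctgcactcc
Sgk1: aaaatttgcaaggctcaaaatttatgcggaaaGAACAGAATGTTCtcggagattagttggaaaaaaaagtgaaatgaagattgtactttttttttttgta
A match describes letters in a window and is not a site of binding in these cells.

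Most other receptor targets did not pass the test. Of 23 tested targets, 2 were called higher (Mt1 and Cdkn1a) and 1 lower (Sgk1), against 1.70% and 1.52% of all genes. The other 20 were not called. The median log2 fold change of the list was -0.18, against 0.03 for all genes. Without WT Paneth replicate 1 it was -0.05. Cdkn1a, the cell cycle inhibitor p21, was at 21.8, 32.9 and 29 CPM in WT and 50.4, 62 and 39.9 CPM in GRKO Paneth cells and rose 1.83-fold (log2 fold change 0.87 ± 0.17, edgeR adjusted p = 0.0411). The groups did not overlap.

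Several textbook targets overlapped between genotypes. Tsc22d3, which encodes the anti-inflammatory protein GILZ, was at 21.6, 28.3 and 18.8 CPM in WT and 16.7, 19.5 and 20 CPM in GRKO (log2 fold change -0.29 ± 0.17, edgeR adjusted p = 0.303). Fkbp5, the co-chaperone that feeds back on the receptor, was at 13.1, 14.8 and 16.8 CPM and 11.2, 17.4 and 10.7 CPM (log2 fold change -0.18 ± 0.20, edgeR adjusted p = 0.588). Neither difference passed the test. For the clock gene Per1 the levels were 13.4, 17.8 and 19.4 CPM in WT and 14.3, 13.3 and 12.4 CPM in GRKO (log2 fold change -0.34 ± 0.22, edgeR adjusted p = 0.344). Klf9, a zinc finger factor, was at 21.8, 29.3 and 36.7 CPM in WT and 33.8, 48.9 and 39.8 CPM in GRKO (log2 fold change 0.49 ± 0.19, edgeR adjusted p = 0.123).

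Another 4 targets did not overlap and missed the threshold. Dusp1, a phosphatase that switches off MAP kinases, was at 34.4, 9.28 and 9.46 CPM in WT and 3.75, 3.26 and 5.3 CPM in GRKO Paneth cells (log2 fold change -2.12 ± 0.62, edgeR adjusted p = 0.0781). WT Paneth replicate 1 had the highest level, and the difference was -1.19 without it. Rhob, a small GTPase, was at 40.7, 19.2 and 21.3 CPM in WT and 15.5, 11.5 and 17.3 CPM in GRKO (log2 fold change -0.89 ± 0.28, edgeR adjusted p = 0.0777), and -0.46 without that library. Dusp1 is also an immediate early gene, and the part of that library's high immediate early level in these differences was not tested. Slc19a2, a thiamine transporter, was at 20.3, 19.2 and 16.9 CPM in WT and 9.18, 11 and 15.4 CPM in GRKO (log2 fold change -0.66 ± 0.18, edgeR adjusted p = 0.0557). The cyclin-dependent kinase inhibitor Cdkn1c was at 2.37, 4.08 and 4.14 CPM in WT and 6.4, 7.49 and 4.26 CPM in GRKO (log2 fold change 0.79 ± 0.30, edgeR adjusted p = 0.117).

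Mt2, the neighbour and close relative of Mt1, was at 13.6, 6.06 and 6.15 CPM in WT and 6.16, 4.32 and 22.7 CPM in GRKO (log2 fold change 0.35 ± 0.89, edgeR adjusted p = 0.835), and the single highest value was GRKO Paneth replicate 3. The remaining uncalled targets had log2 fold changes of -0.46 (Pdk4), -0.42 (Ddit4), -0.39 (Cebpd), -0.30 (Angptl4), -0.28 (Nfkbia), 0.08 (Errfi1), 0.09 (Hif3a), 0.13 (Glul), 0.32 (Klf13), 0.41 (Pck1) and 0.57 (Bcl6), all with overlapping libraries. Of 15 tested steroid receptors, co-chaperones and local steroid enzymes, 1 was called, against 1.70% of all genes called higher. This was Ncoa1, a coactivator of nuclear receptors. It was at 23.6, 28.1 and 29.4 CPM in WT and 40, 43.5 and 45.3 CPM in GRKO (log2 fold change 0.67 ± 0.13, edgeR adjusted p = 0.0409). The median of that list was 0.21, and 0.22 without WT Paneth replicate 1.

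**Figure D1:**
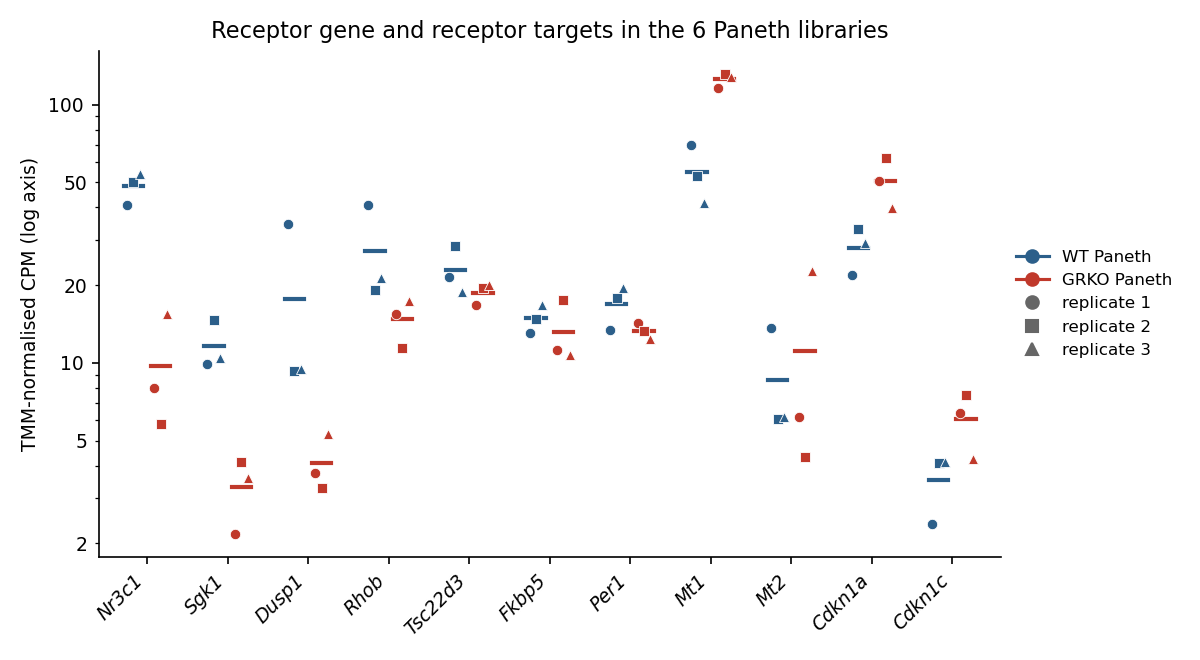
TMM-normalised CPM (log axis) of Nr3c1 and 10 receptor targets in each Paneth library, WT in blue and GRKO in red, with 1 marker shape per replicate number and a bar at each group mean. Nr3c1, Sgk1 and Dusp1 (with Rhob) are lower and Mt1, Cdkn1a and Cdkn1c higher in all 3 GRKO libraries, whereas Tsc22d3, Fkbp5, Per1 and Mt2 overlap.

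Cytosolic ribosomal proteins had more called members than any of the other lists. Of 81 tested members, 42 fell and 0 rose, against 1.52% of all genes called lower, and in 73 of 81 the 3 GRKO libraries lay below all 3 WT libraries, against 10.2% of all genes. The median log2 fold change was -0.65, the lowest was -0.996 (Rps12), and 80 of 81 were below 0. Summed over the list, the ribosomal proteins took 66100, 55140 and 47530 CPM in the WT Paneth libraries and 44570, 31180 and 32900 CPM in the GRKO Paneth libraries. GRKO Paneth replicate 1 came closest to WT, and WT Paneth replicate 1 was the highest.

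The 3 called members with the smallest p were Rpl13a, Rpl31 and Rpl3, all proteins of the large subunit. Rpl31 was at 526, 404 and 338 CPM in WT and 302, 208 and 217 CPM in GRKO (log2 fold change -0.80 ± 0.17, edgeR adjusted p = 0.0435). Rpl3, which lies near the peptidyl transferase centre, was at 1054, 986 and 898 CPM in WT and 719, 569 and 632 CPM in GRKO (log2 fold change -0.61 ± 0.13, edgeR adjusted p = 0.0438). Rpl31 and Rpl3 fell to 57.3 and 65.4% of the WT level, with no overlap. Rpl13a was counted at 66.2, 51.7 and 48.6 CPM in WT and 39.1, 26.1 and 28.4 CPM in GRKO (log2 fold change -0.84 ± 0.16, edgeR adjusted p = 0.0409). Ribosomal protein genes have many processed copies in the genome, and reads that map to several places are not in these counts, so their levels are uncertain.

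Other genes of the translation apparatus were mixed in direction. Of 47 initiation and elongation factors, 1 fell and 3 rose, against 1.52% and 1.70% of all genes, and the median was 0.01. Eef1b2, a subunit of the factor that recharges elongation factor 1A, was at 1068, 881 and 793 CPM in WT and 687, 494 and 566 CPM in GRKO (log2 fold change -0.65 ± 0.16, edgeR adjusted p = 0.0448). Eif4g1, the scaffold of the cap-binding complex, was at 312, 355 and 416 CPM in WT and 482, 673 and 649 CPM in GRKO and rose 1.67-fold (log2 fold change 0.74 ± 0.15, edgeR adjusted p = 0.0411). Eif5b (log2 fold change 0.60 ± 0.12, edgeR adjusted p = 0.0411), which joins the subunits, and the kinase gene Eef2k (log2 fold change 0.60 ± 0.15, edgeR adjusted p = 0.0483) also rose. Of 51 ribosome biogenesis and nucleolus genes, 4 rose and 0 fell, against 1.70% and 1.52% of all genes, with a median of 0.07. They were Rrp12, from 18.1, 23.9 and 20.1 to 34.3, 43.5 and 38.5 CPM (log2 fold change 0.91 ± 0.14, edgeR adjusted p = 0.0331), Ddx21 (log2 fold change 0.62 ± 0.13, edgeR adjusted p = 0.0411), Heatr1 (log2 fold change 0.59 ± 0.14, edgeR adjusted p = 0.0449) and Bysl (log2 fold change 0.60 ± 0.14, edgeR adjusted p = 0.0448), whose products act in the processing or export of pre-ribosomes.

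Many mRNAs of this apparatus start with a C followed by a run of pyrimidines. Such a run, a C with at least 5 pyrimidines after it that begins within 10 bases of a listed start, was present in 31 of 60 ribosomal protein genes with a window (51.7%), in 22.1% of all tested genes, in 36.8% of the genes called lower and in 18.1% of those called higher. The 36.8% includes the ribosomal proteins. Among snoRNA host genes it was present in 6 of 14. The starts of 5 called ribosomal protein genes that hold the run are shown from 30 bases before the start, each on its own strand in GRCm38.p6, with the run in capitals. They lie at chr7:45128726-45128775 (minus), chr1:39367821-39367870 (plus), chr7:24884883-24884932 (plus), chr17:33955646-33955695 (minus) and chr14:18270967-18271016 (minus), in the order printed.
Rpl13a: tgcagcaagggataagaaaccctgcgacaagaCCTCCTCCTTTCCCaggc
Rpl31: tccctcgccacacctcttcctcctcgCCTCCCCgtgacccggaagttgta
Rps19: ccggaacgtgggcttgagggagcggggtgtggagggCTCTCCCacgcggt
Rps18: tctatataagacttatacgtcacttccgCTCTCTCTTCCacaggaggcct
Rpl15: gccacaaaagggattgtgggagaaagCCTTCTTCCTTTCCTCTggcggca
Rps19 (log2 fold change -0.90 ± 0.20, edgeR adjusted p = 0.0448), Rps18 (log2 fold change -0.96 ± 0.21, edgeR adjusted p = 0.0448) and Rpl15 (log2 fold change -0.60 ± 0.13, edgeR adjusted p = 0.0448) were chosen for this display after their values were seen.

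Without WT Paneth replicate 1 the list median was -0.51 and 69 of 81 members were lower at an unadjusted p under 0.05, against 7.83% of all genes. With a trend on exonic length and GC content removed within each library, the median was -0.53 and 6 members were called lower. Stem cell markers, of which 15 were tested, summed to 11520, 11010 and 10840 CPM in WT and 7622, 6667 and 8926 CPM in GRKO Paneth cells, and no stem marker was called. Of these the most abundant was Olfm4, at 7471, 7233 and 6932 CPM in WT and 4624, 3419 and 5152 CPM in GRKO (log2 fold change -0.71 ± 0.19, edgeR adjusted p = 0.0518). Lgr5, the stem cell receptor, named here after its values were seen, overlapped, with 106, 104 and 119 CPM in WT and 74.2, 94.4 and 127 CPM in GRKO. The part of stem marker RNA in the ribosomal protein result was not tested. In the non-Paneth fraction 11 of 15 stem markers were called higher in GRKO, against 17.5% of all genes in that fraction. The stem marker sum there was 8250, 8290 and 9537 CPM in GRKO, against 7437, 5720 and 5897 CPM in WT.

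Host genes of small nucleolar RNAs, long noncoding transcripts whose introns release the guides of rRNA modification, were read next. Of 17 tested, 4 fell and 0 rose, against 1.52% of all genes called lower, in 12 all GRKO libraries were below all WT libraries, against 10.2% of all genes, and the median was -1.16. Zfas1 was at 133, 65.4 and 58.3 CPM in WT and 34.7, 16.2 and 25.3 CPM in GRKO (log2 fold change -1.76 ± 0.37, edgeR adjusted p = 0.0448). Epb41l4aos was at 28.6, 11.5 and 15.8 CPM in WT and 9.91, 4.41 and 7.28 CPM in GRKO (log2 fold change -1.40 ± 0.31, edgeR adjusted p = 0.0448). Snhg4 (log2 fold change -1.30 ± 0.30, edgeR adjusted p = 0.0448) and Snhg15 (log2 fold change -1.07 ± 0.27, edgeR adjusted p = 0.0478) were the other called members. WT Paneth replicate 1 had the highest level of each of the 4. Without it the list median was -0.62, and 9 of 17 members were lower at an unadjusted p under 0.05, against 7.83% of all genes. Among all called genes, 16 were annotated as long noncoding RNA, Zfas1 among them. Every one of these was lower, against 198 of the 420 called genes of any kind. Long noncoding RNAs that were not called were not counted, so the 16 do not describe this class. Epb41l4aos lies antisense to a coding gene, and the sources used here do not say which strand was counted, so its reads may include those of its partner.

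Of 47 tested genes of ER folding and the unfolded protein response, 8 rose and 0 fell, against 1.70% of all genes called higher, and 28 of 47 had all GRKO libraries above all WT libraries, against 14.2% of all genes. The median was 0.50. Summed, the list took 10750, 15380 and 14430 CPM in WT and 18730, 17210 and 15790 CPM in GRKO Paneth cells, so every GRKO library was above every WT library.

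Hyou1, an ER chaperone of the HSP110 family, was at 144, 244 and 239 CPM in WT and 439.7, 489 and 342 CPM in GRKO and rose 2.03-fold (log2 fold change 1.02 ± 0.22, edgeR adjusted p = 0.0448). Syvn1, the ubiquitin ligase of ER-associated degradation, was at 69.3, 59.6 and 57.7 CPM in WT and 88, 106 and 88.4 CPM in GRKO (log2 fold change 0.59 ± 0.13, edgeR adjusted p = 0.044). Os9, a lectin that delivers misfolded glycoproteins to that ligase, was at 186, 227 and 206 CPM in WT and 288, 320 and 305 CPM in GRKO (log2 fold change 0.56 ± 0.11, edgeR adjusted p = 0.0409). Syvn1, Os9 and Edem2 serve the disposal of misfolded proteins, and Hyou1 their folding. Edem2, which trims mannose from such proteins, was at 157, 200.2 and 182 CPM in WT and 249.8, 263 and 250.4 CPM in GRKO (log2 fold change 0.50 ± 0.12, edgeR adjusted p = 0.0448). The other 4 called members, all outside the rule for named genes and given after their values were seen, were Eif2ak3, the stress sensor PERK (0.71), Uggt1, the folding sensor of the calnexin cycle (0.66), Dnajb11, a co-chaperone (0.60), and Atf6b, a relative of the sensor ATF6 (0.47).

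The ER stress element is CCAAT and CCACG with any NNNNNNNNN between them, and it was searched on both strands. It was present in 10 of 41 ER folding genes with a window (24.4%) and in 17 of all 9924 (0.171%). The 10 genes had log2 fold changes between 0.36 (Pdia6) and 0.84 (Creld2), and 1 of them, Syvn1, was called. Syvn1 and 3 abundant chaperone or co-chaperone genes that hold the element are shown, the latter chosen after their values were seen, with the element in capitals. They lie at chr19:6046512-6046571 (plus), chr2:34772005-34772064 (plus), chr10:86705523-86705676 (minus) and chr14:118937807-118937866 (plus) in GRCm38.p6.
Syvn1: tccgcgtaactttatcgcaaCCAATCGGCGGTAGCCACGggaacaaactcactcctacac
Hspa5: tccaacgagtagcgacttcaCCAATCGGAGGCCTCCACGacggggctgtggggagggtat
Hsp90b1: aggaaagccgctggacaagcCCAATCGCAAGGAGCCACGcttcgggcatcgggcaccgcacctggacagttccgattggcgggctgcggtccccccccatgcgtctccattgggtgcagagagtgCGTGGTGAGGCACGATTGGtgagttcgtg
Dnajc3: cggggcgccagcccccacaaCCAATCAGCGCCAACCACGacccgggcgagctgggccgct
Hsp90b1 holds the element once on each strand. Hspa5, the ER chaperone BiP, was at 594, 1053 and 1062 CPM in WT and 1797, 1504 and 1135 CPM in GRKO (log2 fold change 0.71 ± 0.23, edgeR adjusted p = 0.0834). Hsp90b1 (GRP94) was at 422, 489.6 and 566 CPM in WT and 719.5, 777 and 603 CPM in GRKO (log2 fold change 0.51 ± 0.16, edgeR adjusted p = 0.0721). Dnajc3 was at 137, 238 and 255 CPM in WT and 325, 334 and 302 CPM in GRKO (log2 fold change 0.61 ± 0.19, edgeR adjusted p = 0.0695). In these 3 genes the groups did not overlap, but the adjusted p missed the threshold. Xbp1, the transcription factor of the secretory ER, also named after its values were seen, was at 210.5, 310.3 and 269.7 CPM in WT and 327, 327 and 335 CPM in GRKO (log2 fold change 0.32 ± 0.14, edgeR adjusted p = 0.16).

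Without WT Paneth replicate 1 the ER folding median was 0.36, and 23 of 47 members were higher at an unadjusted p under 0.05, against 10.8% of all genes. That library had the lowest summed level of the list. With the length and GC trend removed, the median was 0.50 and 4 members were called.

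COPI and COPII are the coats of vesicles between ER and Golgi. Of 41 tested genes of this transport, 8 rose and 0 fell, against 1.70% of all genes called higher, 19 had all GRKO libraries above WT and 1 below, against 14.2% and 10.2% of all genes, and the median was 0.34. Sec16a, which organises ER exit sites, was at 95.6, 156 and 143 CPM in WT and 186, 234 and 225 CPM in GRKO (log2 fold change 0.71 ± 0.17, edgeR adjusted p = 0.0448). Sec31a, in the outer COPII coat, was at 186, 265 and 246 CPM in WT and 325, 369 and 327 CPM in GRKO (log2 fold change 0.55 ± 0.13, edgeR adjusted p = 0.0448). Sec24c, which selects cargo, was at 106, 128 and 129 CPM in WT and 176, 184 and 167 CPM in GRKO (log2 fold change 0.54 ± 0.13, edgeR adjusted p = 0.0448). All 3 coat genes were above WT in every GRKO library. Copg1, a COPI coat subunit of retrograde transport, was at 144, 172 and 166 CPM in WT and 213, 251 and 216 CPM in GRKO (log2 fold change 0.50 ± 0.12, edgeR adjusted p = 0.0448). The motif TGACGTGG was found in the windows of 7 of 35 COPI and COPII genes, 0.988% of all tested genes, 4.09% of those called higher and 0 of 144 called lower. Without WT Paneth replicate 1 the COPI and COPII median was 0.20, and with the length and GC trend removed it was 0.33 and 0 members were called.

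**Figure D2:**
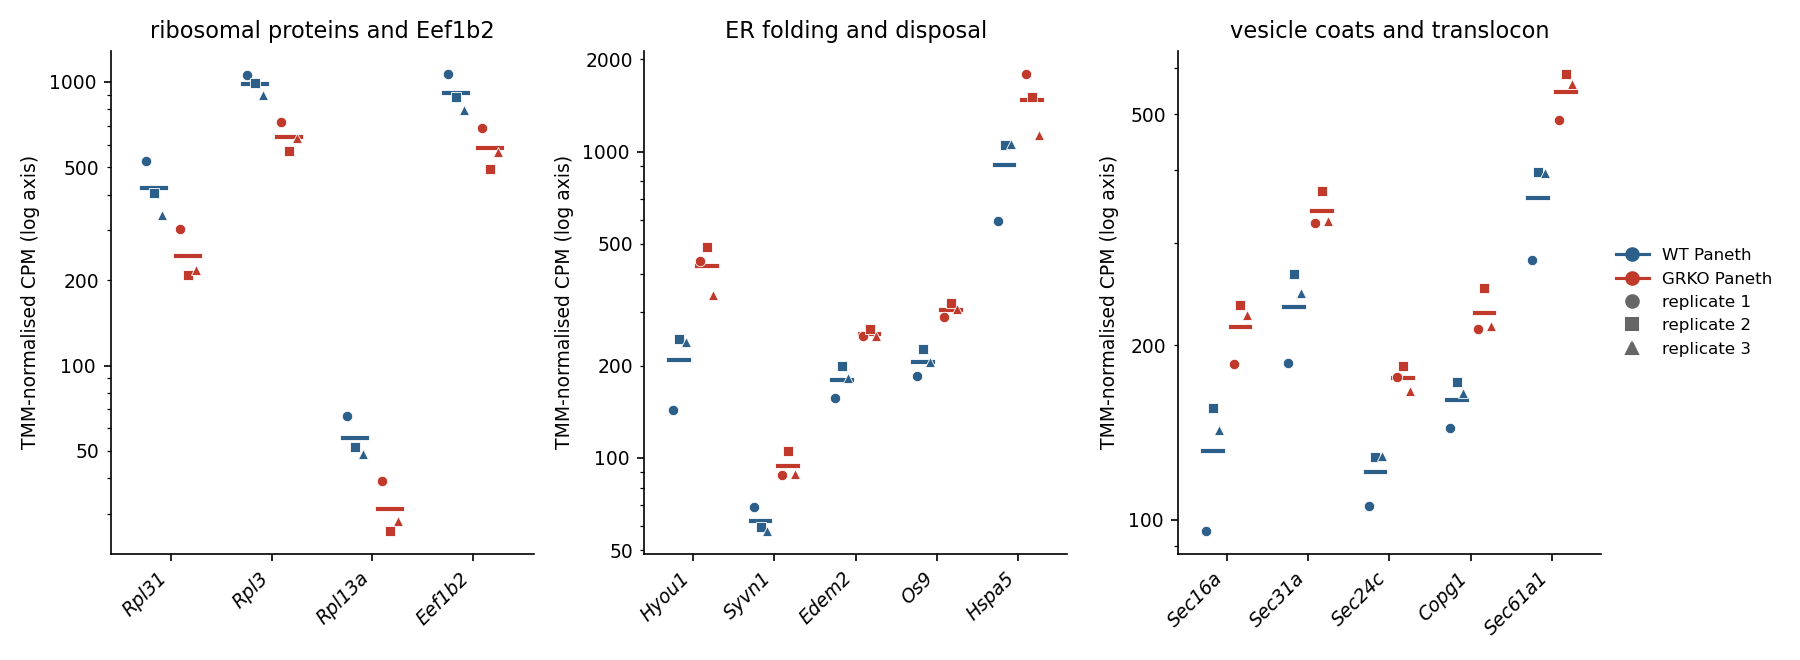
TMM-normalised CPM (log axis) in each Paneth library of 4 genes of the translation apparatus, 5 of ER folding and disposal and 5 of vesicle coats and the translocon, WT in blue and GRKO in red with bars at group means. No gene shown overlaps between genotypes, and WT Paneth replicate 1 (blue circle) is often the WT value farthest from GRKO.

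Of 34 genes of ER translocation and signal peptide processing, 3 rose and 0 fell, against 1.70% and 1.52% of all genes. In 16 all GRKO libraries lay above WT and in 1 below, against 14.2% and 10.2% of all genes. The median was 0.28 (0.20 without WT Paneth replicate 1). Sec61a1, the channel of the translocon, was at 281, 398 and 396 CPM in WT and 488, 587 and 564 CPM in GRKO (log2 fold change 0.61 ± 0.15, edgeR adjusted p = 0.0448). Srp72 (log2 fold change 0.53 ± 0.12, edgeR adjusted p = 0.0448) and Srp68 (log2 fold change 0.46 ± 0.11, edgeR adjusted p = 0.0469) encode the heterodimer of the signal recognition particle that binds its RNA. The 37 glycosylation genes had a median of 0.48 (0.30 without that library), and 15 had all GRKO libraries above WT, against 14.2% of all genes. Of the 37, 2 rose and 0 fell, against 1.70% and 1.52% of all genes. They were Mgat3, which adds the bisecting sugar of N-glycans, from 59.4, 90.9 and 81.8 to 103, 135 and 117 CPM (log2 fold change 0.61 ± 0.15, edgeR adjusted p = 0.0449), and Galnt2, which starts O-glycans, from 31.5, 41.8 and 33.1 to 49.2, 58.6 and 48.1 CPM (log2 fold change 0.55 ± 0.13, edgeR adjusted p = 0.0448). Of 20 aminoacyl tRNA synthetase genes 3 rose and 0 fell, against 1.70% and 1.52% of all genes. The median was 0.25 (0.20 without that library). Aars1 was at 88, 121 and 119 CPM in WT and 174, 191 and 164 CPM in GRKO (log2 fold change 0.69 ± 0.13, edgeR adjusted p = 0.0409), and Hars1 (log2 fold change 0.47 ± 0.11, edgeR adjusted p = 0.0448) and Eprs1 (log2 fold change 0.51 ± 0.13, edgeR adjusted p = 0.0479) were the other called members.

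Of 22 transcription factors of the secretory lineage and Paneth cells, Bhlha15 alone was called, against 1.70% of all genes called higher. Known as MIST1, it scales up the secretory apparatus of serous cells, and it was at 125, 178 and 182 CPM in WT and 226, 299 and 320.3 CPM in GRKO (log2 fold change 0.80 ± 0.18, edgeR adjusted p = 0.0448). The list median was 0.31, and 0.23 without WT Paneth replicate 1. In 8 of the 22 all GRKO libraries lay above WT and in 0 below, against 14.2% and 10.2% of all genes. Wfs1, an ER membrane protein, was at 13.9, 17.7 and 18.3 CPM in WT and 29.1, 41.1 and 32.2 CPM in GRKO (log2 fold change 1.04 ± 0.18, edgeR adjusted p = 0.0347). In both genes the lowest GRKO library was above the highest WT library.

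**Figure D3:**
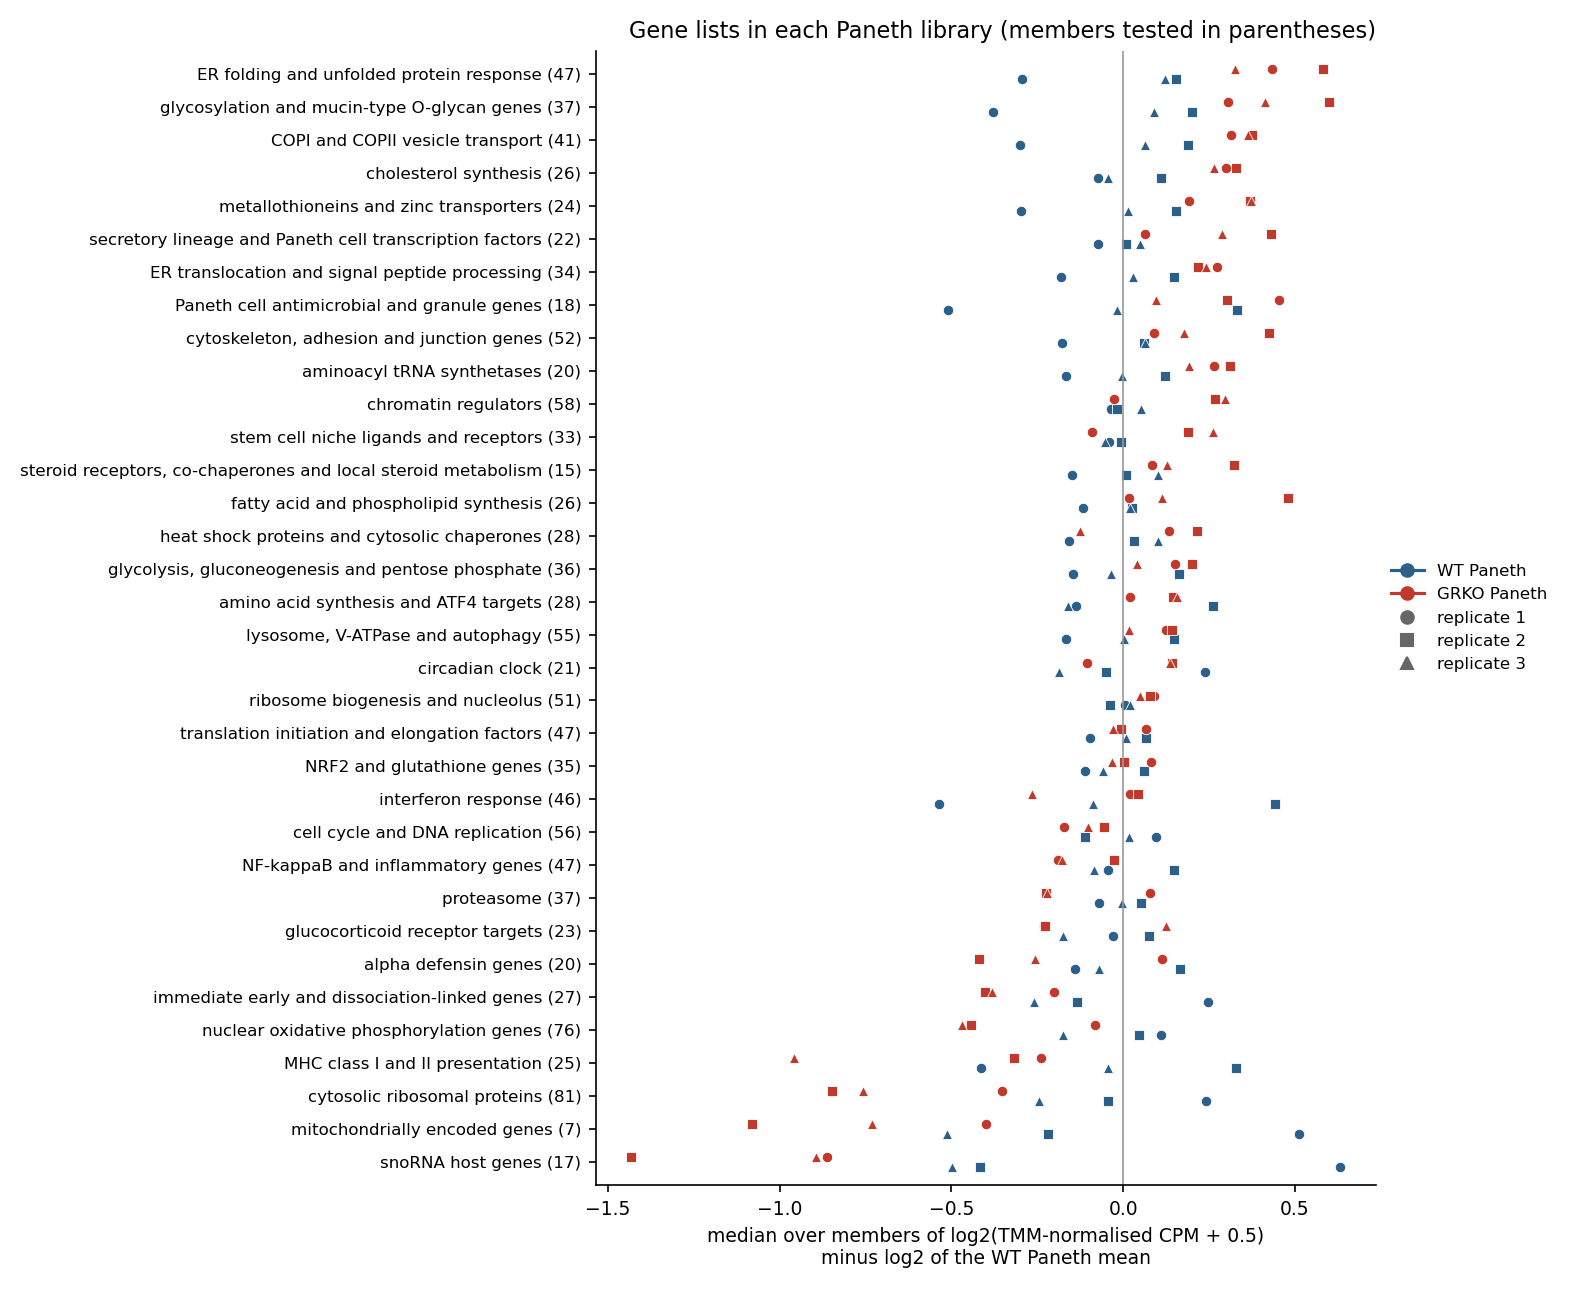
For each of 34 gene lists and each Paneth library, the median over members of log2(TMM-normalised CPM + 0.5) minus log2 of the WT Paneth mean, with WT in blue and GRKO in red. The 3 GRKO libraries lie right of all WT libraries for ER folding, glycosylation, COPI and COPII, cholesterol synthesis and ER translocation, and left of them for ribosomal proteins and snoRNA host genes. WT Paneth replicate 1 (blue circle) is the WT library farthest from GRKO in each of these 7 lists. Aminoacyl tRNA synthetases, metallothioneins and zinc transporters, secretory transcription factors, cytoskeleton and ribosome biogenesis also separate to the right. In ribosome biogenesis WT Paneth replicate 2 is the WT library farthest from GRKO.

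The main secreted products overlapped between genotypes. Lyz1, lysozyme, was at 132300, 233000 and 188100 CPM in WT and 179600, 120100 and 206700 CPM in GRKO (log2 fold change -0.13 ± 0.41, edgeR adjusted p = 0.871). Itln1, an intelectin that binds microbial sugars, was at 36090, 74610 and 54340 CPM in WT and 74060, 55770 and 55590 CPM in GRKO (log2 fold change 0.17 ± 0.39, edgeR adjusted p = 0.815). Defa24, the alpha defensin with the highest level, was at 170400, 213800 and 179500 CPM in WT and 243900, 160500 and 161000 CPM in GRKO (log2 fold change 0.00 ± 0.43, edgeR adjusted p = 0.996). Of 18 antimicrobial and granule genes 0 were called by edgeR, with 3 higher and 0 lower at an unadjusted p under 0.05, against 15.5% and 11.2% of all genes, and a median of 0.27, which was 0.06 without WT Paneth replicate 1.

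The 20 tested alpha defensin genes had a median of -0.19 (0.21 with the length and GC trend removed, so that the sign depends on it). Of these 1 fell and 0 rose, against 1.52% and 1.70% of all genes. The 1 was Defa35, at 218, 281 and 261 CPM in WT and 154, 106 and 154 CPM in GRKO (log2 fold change -0.88 ± 0.16, edgeR adjusted p = 0.0382). Defensin genes resemble each other closely, and reads that map to several of them are not in these counts, so a single member is uncertain. The list of 11 sort and identity markers had no called member, 1 at an unadjusted p under 0.05, and a median of 0.17 (0.03 without WT Paneth replicate 1).

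Zinc is stored in Paneth granules. Of 24 tested metallothioneins and zinc transporters, Mt1 alone was called, against 1.70% of all genes called higher. In 6 of the 24 all GRKO libraries lay above WT and in 0 below, against 14.2% and 10.2% of all genes. The median was 0.33 (0.19 without WT Paneth replicate 1). The metal response element, TGCACNC or TGCGCNC, occurs in 13 of 21 of these genes with a window (61.9%) and in 40.3% of all tested genes.

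The called genes with the greatest positive changes and a mean of 10 CPM or more in at least 1 genotype were of mixed kinds. A low gene could meet that minimum only through the group where it was high. Among the genes with levels given here, Plk2, Cacna2d2, Acacb and Capn9 did so through GRKO. Plk2, a stress-induced kinase, was at 3.13, 3.34 and 4.14 CPM in WT and 15.3, 19.8 and 6.62 CPM in GRKO and rose 3.94-fold (log2 fold change 1.98 ± 0.46, edgeR adjusted p = 0.0448). Pnliprp1, a relative of pancreatic lipase, was at 25.4, 27.5 and 30.8 CPM in WT and 107, 95.7 and 43.4 CPM in GRKO (log2 fold change 1.55 ± 0.28, edgeR adjusted p = 0.0409). Cacna2d2, a calcium channel subunit, was at 3.42, 4.33 and 5.32 CPM in WT and 13.1, 17.6 and 7.38 CPM in GRKO (log2 fold change 1.55 ± 0.38, edgeR adjusted p = 0.0448). In each, GRKO Paneth replicate 3 was the lowest GRKO library. Acacb, which makes malonyl-CoA at mitochondria, was at 7.03, 9.52 and 10.2 CPM in WT and 24, 26.4 and 13.1 CPM in GRKO (log2 fold change 1.25 ± 0.27, edgeR adjusted p = 0.0448). The protease gene Capn9 was at 6.46, 8.78 and 11.1 CPM in WT and 26.6, 20.2 and 14.6 CPM in GRKO (log2 fold change 1.22 ± 0.30, edgeR adjusted p = 0.0484), and the potassium channel gene Kcnk6 at 12.9, 21.9 and 22 CPM and 40.7, 46.7 and 43.4 CPM (log2 fold change 1.21 ± 0.26, edgeR adjusted p = 0.0448). Rnase1, a secreted ribonuclease and the most abundant of these genes, went from 247, 299 and 208 CPM to 526, 423 and 705 CPM (log2 fold change 1.13 ± 0.20, edgeR adjusted p = 0.0382). The death receptor gene Tnfrsf21 (1.12) and the phosphatase gene Dusp7 also rose, as did Mt1, Wfs1 and Hyou1 above.

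GRKO Paneth replicate 3 was also the lowest GRKO library in tuft cell markers. The 17 counted tuft markers, of which 16 were tested, summed to 306, 562 and 781 CPM in WT and 1523, 1981 and 667 CPM in GRKO Paneth cells. GRKO Paneth replicate 3 was inside the WT range. None of the 16 was called by edgeR, 7 were higher and 0 lower at an unadjusted p under 0.05, against 15.5% and 11.2% of all genes, and all 16 had positive log2 fold changes, against 52.9% of all genes, with a median of 1.37 (1.09 without WT Paneth replicate 1). Dclk1 was at 34.6, 98.8 and 137 CPM in WT and 247, 381 and 138 CPM in GRKO (log2 fold change 1.51 ± 0.73, edgeR adjusted p = 0.225), and Trpm5, the taste channel of tuft cells, at 72.2, 124 and 153 CPM and 304, 345 and 138 CPM (log2 fold change 1.17 ± 0.55, edgeR adjusted p = 0.212). The part of tuft cell RNA in the rise of Plk2, Pnliprp1, Cacna2d2, Acacb and Me1 (given below) was not tested.

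The genes with the greatest negative changes, beside Nr3c1, Sgk1, Zfas1 and Epb41l4aos, were again of mixed kinds. Nr3c1, Sgk1, Epb41l4aos, Agr3, Eldr, Ankrd16, Ddb2, BC064078 and Slc23a3 met the minimum of 10 CPM only through WT, where they were higher. Agr3, of the anterior gradient family of protein disulfide isomerases, was at 14.2, 7.42 and 8.75 CPM in WT and 4.47, 2.2 and 2.84 CPM in GRKO (log2 fold change -1.71 ± 0.36, edgeR adjusted p = 0.0443). Eldr, a noncoding transcript, was at 14.3, 7.67 and 8.52 CPM in WT and 4.71, 2.29 and 3.22 CPM in GRKO (log2 fold change -1.61 ± 0.34, edgeR adjusted p = 0.0443). Ankrd16 was at 19.8, 9.4 and 7.92 CPM in WT and 4.47, 3.17 and 5.2 CPM in GRKO (log2 fold change -1.55 ± 0.33, edgeR adjusted p = 0.0448). In these 3 genes WT Paneth replicate 1 was the highest library. Sectm1b was at 26.1, 43.5 and 23.4 CPM in WT and 13.8, 10.6 and 12.5 CPM in GRKO (log2 fold change -1.34 ± 0.24, edgeR adjusted p = 0.0409), and Ddb2, a protein of DNA damage recognition, at 15.9, 8.9 and 10.9 CPM and 6.4, 3.26 and 4.73 CPM (log2 fold change -1.33 ± 0.27, edgeR adjusted p = 0.0425). BC064078 (-1.42) and Slc23a3 (-1.23) fell as well.

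Of 47 tested NF-kappaB and inflammatory genes 3 fell and 0 rose, against 1.52% and 1.70% of all genes. In 11 all GRKO libraries lay below WT and in 3 above, against 10.2% and 14.2% of all genes. The median was -0.11, with or without WT Paneth replicate 1. Casp4, the caspase that senses bacterial lipopolysaccharide in the cytosol, was at 37, 37.9 and 25.7 CPM in WT and 11.4, 12 and 18.3 CPM in GRKO (log2 fold change -1.27 ± 0.24, edgeR adjusted p = 0.0409). Casp1, the effector of inflammasomes, was at 77.1, 75.7 and 84.5 CPM in WT and 55.9, 47.1 and 52.7 CPM in GRKO (log2 fold change -0.61 ± 0.11, edgeR adjusted p = 0.0347). Ccl25, a chemokine that draws lymphocytes to the small intestine, was at 171, 185 and 113 CPM in WT and 94, 75 and 104 CPM in GRKO (log2 fold change -0.78 ± 0.19, edgeR adjusted p = 0.0448). All 3 were lower in every GRKO library.

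Of 25 genes of antigen presentation 1 fell, against 1.52% of all genes called lower. In 9 all GRKO libraries lay below WT, against 10.2% of all genes, and the median was -0.60 (-0.80 without WT Paneth replicate 1). The called member was the cathepsin gene Ctss, which trims the invariant chain, at 30.9, 39.1 and 31.1 CPM in WT and 21.6, 21.9 and 17.1 CPM in GRKO (log2 fold change -0.74 ± 0.15, edgeR adjusted p = 0.043). The summed level was 3224, 5134 and 4100 CPM in WT and 3473, 3761 and 1931 CPM in GRKO Paneth cells, and these ranges overlapped. Of 46 interferon response genes edgeR called 0, with 3 higher and 7 lower at an unadjusted p under 0.05, against 15.5% and 11.2% of all genes, and the median was -0.09 with a sign that depended on the library left out (-0.31 to 0.30). The 29 markers of immune cells, of which 10 were tested, summed to 22.1, 45.8 and 22.7 CPM in WT and 39.6, 39.7 and 12.8 CPM in GRKO Paneth cells. Among them Ptprc was at 0.285, 4.08 and 5.68 CPM in WT and 19, 28.7 and 2.08 CPM in GRKO (log2 fold change 2.35 ± 1.18, edgeR adjusted p = 0.24). Of the 10 tested, 8 were below 0, and 0 were higher and 3 lower at an unadjusted p under 0.05. The median was -2.84 (0.10 with Paneth libraries only). The T cell integrin gene Itgae, named here after its values were seen, was the 1 called member, against 1.52% of all genes called lower. It was at 0.475, 2.1 and 0.946 CPM in WT and 0.242, 0 and 0 CPM in GRKO (log2 fold change -3.93 ± 0.92, edgeR adjusted p = 0.0448). With GRKO libraries at or near 0, this fitted value depends on the prior count.

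Of 26 cholesterol synthesis genes 3 rose and 0 fell, against 1.70% and 1.52% of all genes. In 10 all GRKO libraries lay above WT, against 14.2% of all genes, and the median was 0.33 (0.32 without WT Paneth replicate 1). Lss, lanosterol synthase, was at 22.9, 21.6 and 19.9 CPM in WT and 33.7, 40.7 and 34.5 CPM in GRKO (log2 fold change 0.76 ± 0.13, edgeR adjusted p = 0.0347). Sqle, squalene epoxidase, was at 36, 37.9 and 40.7 CPM in WT and 57.9, 74 and 59.6 CPM in GRKO (log2 fold change 0.74 ± 0.14, edgeR adjusted p = 0.0409). Srebf2, the transcription factor of the pathway, was at 144, 138 and 136 CPM in WT and 169, 220.3 and 188 CPM in GRKO (log2 fold change 0.47 ± 0.12, edgeR adjusted p = 0.0484). The 3 genes were higher in every GRKO library. The 26 fatty acid and phospholipid genes had a median of 0.19 (0.22 without WT Paneth replicate 1). Of these 2 rose and 0 fell, against 1.70% and 1.52% of all genes. Beside Acacb this was Me1, the malic enzyme that supplies NADPH, at 0.949, 1.61 and 2.96 CPM in WT and 11.1, 12.7 and 3.22 CPM in GRKO (log2 fold change 2.31 ± 0.49, edgeR adjusted p = 0.0448).

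Of 76 nuclear genes of oxidative phosphorylation 2 fell and 0 rose, against 1.52% and 1.70% of all genes. In 14 all GRKO libraries lay below WT and in 1 above, against 10.2% and 14.2% of all genes. The median was -0.33 (-0.29 without WT Paneth replicate 1, and -0.21 with the length and GC trend removed). Ndufa4 was at 369, 297 and 243 CPM in WT and 237, 153 and 178 CPM in GRKO (log2 fold change -0.68 ± 0.17, edgeR adjusted p = 0.0476), and Cox7b at 328, 276 and 241 CPM and 235, 147 and 156 CPM (log2 fold change -0.66 ± 0.17, edgeR adjusted p = 0.0492). Both encode small subunits of the respiratory chain. Of 7 mitochondrially encoded genes edgeR called 0, with 5 lower and 0 higher at an unadjusted p under 0.05, against 11.2% and 15.5% of all genes, and the median was -0.69 (-0.41 without WT Paneth replicate 1). Their summed level was 29740, 18800 and 15360 CPM in WT and 16140, 9425 and 12240 CPM in GRKO Paneth cells, which overlapped. Of 35 NRF2 and glutathione genes 1 rose and 2 fell, against 1.70% and 1.52% of all genes, with a median of -0.04. Osgin1, an oxidative stress response gene, was at 6.17, 9.89 and 7.33 CPM in WT and 14.1, 15.6 and 13.9 CPM in GRKO (log2 fold change 0.91 ± 0.21, edgeR adjusted p = 0.0448), while Mgst1 (log2 fold change -0.76 ± 0.16, edgeR adjusted p = 0.0436) and Gpx4 (log2 fold change -0.70 ± 0.18, edgeR adjusted p = 0.0492), enzymes that detoxify lipid peroxides, fell.

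Of 56 cell cycle and replication genes 4 fell and 1 rose, against 1.52% and 1.70% of all genes. In 18 all GRKO libraries lay below WT, against 10.2% of all genes, and the median was -0.09 (-0.05 without WT Paneth replicate 1). Stmn1, which destabilises microtubules, was at 117, 94.2 and 110.5 CPM in WT and 76, 61.4 and 67.1 CPM in GRKO (log2 fold change -0.66 ± 0.13, edgeR adjusted p = 0.0411). Tk1, thymidine kinase, was at 64.2, 53.1 and 55.5 CPM in WT and 42.9, 36 and 32.5 CPM in GRKO (log2 fold change -0.64 ± 0.14, edgeR adjusted p = 0.044). Hmgb2, a chromatin protein of cycling cells, was at 203, 173 and 171 CPM in WT and 141, 104 and 120.2 CPM in GRKO (log2 fold change -0.58 ± 0.13, edgeR adjusted p = 0.0448). They were lower in every GRKO library. The member that rose was E2f2 (log2 fold change 0.60 ± 0.13, edgeR adjusted p = 0.0448). The summed level of the stem markers, given above, was also lower in every GRKO than in every WT Paneth library, with no marker called. The part of stem cell RNA in their fall was not tested.

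Paneth cells feed the neighbouring stem cells with growth factors. Of 33 niche ligands and receptors 1 fell, against 1.52% of all genes called lower, and 7 had all GRKO libraries above and 4 below WT, against 14.2% and 10.2% of all genes, with a median of 0.21 (0.15 without WT Paneth replicate 1). It was Hbegf, a ligand of the EGF receptor, at 9.21, 4.21 and 3.08 CPM in WT and 1.81, 1.85 and 2.08 CPM in GRKO (log2 fold change -1.54 ± 0.34, edgeR adjusted p = 0.0448). WT Paneth replicate 1 had the highest level, and without it the difference was -0.92.

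The 55 lysosome, V-ATPase and autophagy genes had a median of 0.09 (0.005 without WT Paneth replicate 1). Of them 1 rose, against 1.70% of all genes. It was Atp6v0a1, a subunit of the proton pump, from 18.4, 19.3 and 18.3 CPM to 29.5, 35.5 and 29.7 CPM (log2 fold change 0.76 ± 0.13, edgeR adjusted p = 0.0347). In 8 further lists edgeR called 0 members, and their counts at an unadjusted p under 0.05 stand against 15.5% of all genes higher and 11.2% lower. Cytoskeleton and junction genes, 52 in number, had 17 members above WT in all GRKO libraries, against 14.2% of all genes. By CPM of library totals there were 4. At that p 21 were higher and 0 lower, and the median was 0.26 (0.16 without WT Paneth replicate 1). The 58 chromatin regulators had 16 higher and 0 lower at that p and a median of 0.22 (0.09 with the length and GC trend removed). At the same p, and against the same shares of 15.5% and 11.2%, 5 were higher and 2 lower of 28 amino acid and ATF4 targets (median 0.14), 10 and 3 of 36 glycolysis genes (0.15), 6 and 2 of 28 heat shock genes (0.17), 6 and 9 of 37 proteasome genes (-0.16), 4 and 0 of 21 clock genes (0.09) and 1 and 11 of 27 immediate early genes (-0.32).

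Markers of other cell types were read in the same way. Of 27 enterocyte markers edgeR called 0, with 1 higher and 5 lower at an unadjusted p under 0.05, against 15.5% and 11.2% of all genes, and their sum was 1674, 4328 and 1940 CPM in WT and 1708, 2539 and 2222 CPM in GRKO Paneth cells. The 15 goblet cell markers had 0 calls, 4 higher and 0 lower at that p, and summed to 15290, 16090 and 12660 CPM in WT and 20080, 13600 and 12580 CPM in GRKO. Of 22 enteroendocrine markers 0 were called, 0 were higher and 5 lower at that p, and the sum was 306, 290.1 and 177 CPM in WT and 176, 183 and 195 CPM in GRKO. The 24 stromal, endothelial and red blood cell markers summed to 7.31, 5.44 and 4.61 CPM in WT and 3.62, 9.25 and 5.77 CPM in GRKO. Of these 3 were tested, with 0 calls and 0 at that p. The 4 tested sex-linked genes likewise had 0 calls and 0 at that p. As WT Paneth replicate 2 differed from the other WT libraries in such genes, this does not show that sex was balanced. The part of other cells in the results was not tested.

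The same deletion in the non-Paneth crypt cells called 4869 genes, 17.5% of all genes higher and 19.8% lower. Of the 420 genes called in Paneth cells, 127 were called with the same sign there, 51 with the opposite sign and 242 were not called. The test of the difference between the fractions (interaction) called 2446 of all genes (18.7%) and 181 of the 420. The 2 comparisons have no library in common. The labels do not say whether Paneth and non-Paneth libraries of the same number share a mouse, and the test takes all libraries as independent. With same-numbered libraries of a genotype as a block, a setting added after the data were seen, the interaction was called in 2977 genes.

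Nr3c1, Sgk1 and Mt1 had the same sign in both fractions, with non-Paneth log2 fold changes of -2.67, -2.91 and 1.75, and their interaction was not called. Cdkn1a went opposite ways. It was at 106, 121 and 125 CPM in WT and 39.7, 48.6 and 44.6 CPM in GRKO non-Paneth cells (-1.40, against 0.87 in Paneth cells; interaction 2.27, edgeR adjusted p = 7.77e-05). Osgin1 (-1.96 against 0.91; interaction 2.87, edgeR adjusted p = 5.13e-05), Atp6v0a1 (-1.48 against 0.76; interaction 2.24, edgeR adjusted p = 1e-05) and Wfs1 (-0.60 against 1.04; interaction 1.64, edgeR adjusted p = 0.000915) also differed in sign.

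For the ribosomal proteins the interaction was called in 51 of 81 members, against 18.7% of all genes. In non-Paneth cells 5 of the 81 rose and 0 fell, against 17.5% and 19.8% of all genes in that fraction. The non-Paneth median was 0.11, and the summed level was 35400, 29760 and 28980 CPM in WT and 32040, 33740 and 36150 CPM in GRKO. For COPI and COPII the interaction was called in 17 of 41. The non-Paneth median was -0.18, with 1 gene higher and 12 lower, against 17.5% and 19.8% of all genes. In ER folding genes the interaction was called in 7 of 47 and in snoRNA hosts in 1 of 17, Snhg4 (interaction -1.23, edgeR adjusted p = 0.0486), in both below the 18.7% of all genes. Os9 (interaction 1.07, edgeR adjusted p = 0.000586) and Syvn1 (interaction 1.11, edgeR adjusted p = 0.00111) were among the 7. Aminoacyl tRNA synthetases had no called interaction. In non-Paneth cells 14 of 20 rose, against 17.5% of all genes, with a median of 0.43. Ribosome biogenesis genes rose in 44 of 51 in non-Paneth cells, against 17.5% of all genes, with a median of 0.62. Between the fractions 25 of 51 differed, against 18.7% of all genes.

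**Figure D4:**
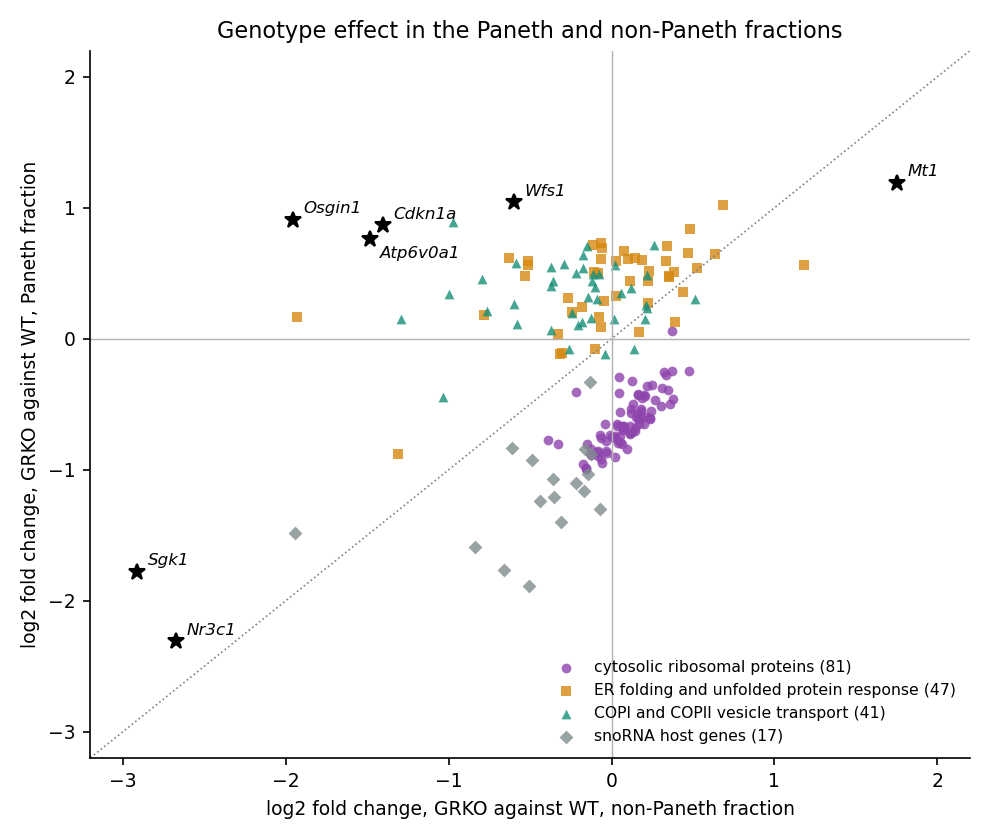
Log2 fold change of GRKO against WT in the Paneth fraction (vertical) and in the non-Paneth fraction (horizontal) for the tested members of 4 lists (colours and shapes) and 7 named genes (stars), with a dotted line where both are equal. In Paneth cells 80 of 81 ribosomal proteins lie below 0, around a non-Paneth median of 0.11, and 37 of 41 COPI and COPII genes above 0, around a non-Paneth median of -0.18, while Nr3c1 and Sgk1 are below 0 and Mt1 above 0 on both axes.

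Direction also went with the length of the transcripts. The median exonic length was 8151 bases in genes called higher, 3719 in those called lower and 6061 in all tested genes. When genes were ordered by exonic length and divided into 5 groups of equal size, the median log2 fold change was -0.19 in the shortest group and 0.17 in the longest, with -0.03, 0.05 and 0.12 between. The shortest group held 88 lower and 12 higher calls and the longest 12 lower and 68 higher. Against the WT mean, the medians of the shortest and longest groups were -0.20 and 0.19 in GRKO Paneth replicate 2, -0.25 and 0.21 in replicate 3 and -0.07 and 0.03 in replicate 1. In the WT Paneth libraries they were 0.03 and -0.11 in replicate 1, 0.04 and 0.04 in replicate 2 and -0.11 and 0.06 in replicate 3, so that WT Paneth replicate 3 sloped as the GRKO libraries did, and more than GRKO Paneth replicate 1. With trends on length and GC content removed within each library, 101 genes were called. Ribosomal proteins made up 21.2% of the genes called lower. The part of length in the other results was not tested beyond these values.

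**Figure D5:**
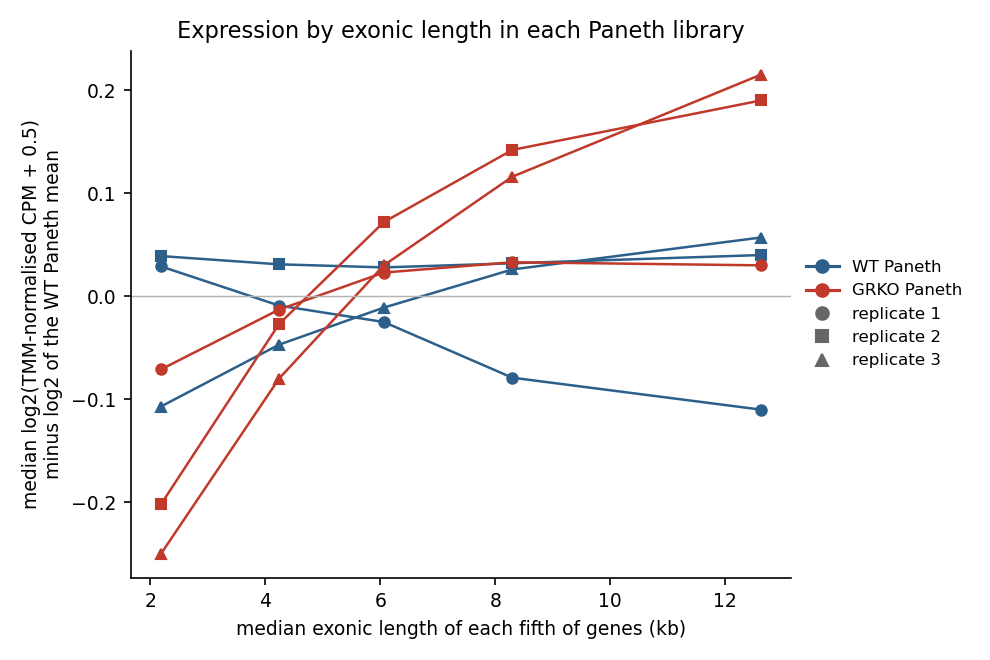
Median log2(TMM-normalised CPM + 0.5) minus log2 of the WT Paneth mean, over the genes of each of 5 groups by exonic length (horizontal, median in kb), with 1 line per Paneth library, WT in blue and GRKO in red. GRKO Paneth replicates 2 and 3 climb from -0.20 and -0.25 in the shortest group to 0.19 and 0.21 in the longest, WT Paneth replicate 3 climbs from -0.11 to 0.06, GRKO Paneth replicate 1 stays between -0.07 and 0.03 and WT Paneth replicate 2 near 0.04, and WT Paneth replicate 1 declines from 0.03 to -0.11.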

How the data were processed

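RNA was taken from sorted Paneth and non-Paneth crypt cells, and stranded TruSeq libraries were sequenced single-end. Per the labels and methods, the authors trimmed reads with Trimmomatic 0.39, aligned them to mm39 with STAR 2.7.10a and counted them per gene during alignment, and the deposited values are these raw counts, without normalization or pooling. Reads that map to several places or overlap several genes are not in such counts. Submitters' notes also name FastQC and DESeq2.

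The table held 55414 identifiers, of which 54742 were named through GENCODE vM39 (GRCm39), whose release may differ from the one counted with. Samples were grouped by title. edgeR 4.0.16 in R 4.3.3 (TMM, filterByExpr, glmQLFit with robust estimates, glmQLFTest) was fitted with 1 mean per group over all 12 libraries, and p-values were adjusted by Benjamini-Hochberg over 13057 genes at 5%. Totals were 11126297 counts or more, and the share of counting error in the library spread was not measured. Alternatives were DESeq2 1.42.0, RLE factors, library totals, scaling without Lyz1 and Defa genes, other filters, Paneth libraries only, a replicate block, length and GC trends removed (lengths for 99.8% of tested genes), a rate of 1%, each library left out and, added after the data were seen, same-numbered libraries of a genotype as a block for the interaction. Counts for this comparison were also simulated over 12917 genes. In them 89% of 100 genes changed 2-fold and 97% of 100 genes changed 3-fold were recovered, and 4.12% of 194 calls were false. The simulation drew each gene independently with the fitted dispersions and changed only genes above a minimum WT level. It held no effect shared by the genes of a library, so these rates do not describe the calls in the measured data. Counts of 2 libraries of a group differed by a chi-square per degree of freedom of 13.2 or more, so none is a duplicate.

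Named genes are the receptor targets, the 12 greatest changes each way among called genes with a mean of 10 CPM in 1 genotype and no overlap, up to 4 members per list, abundant markers and the 10 greatest interactions, except for results that are not reported here. The 43 lists held 1430 entries, 1425 of them matched (16 by an older symbol). The members and lists were chosen with earlier results of these data known. Promoters are from RefSeq (GRCm38.p6), and tables used pandas 2.3.3 in Python 3.11.15.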

Additional observations from a re-analysis of the deposited data

Results flagged for a closer look

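The genotype effect differed between the Paneth and non-Paneth fractions, by edgeR's interaction test at an adjusted p under 0.05, in 42 named genes. The values below are the Paneth log2 fold change minus the non-Paneth one, against 18.7% of all genes called in this test. No explanation was tested for any of them.

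The greatest negative values belong to 5 markers of tuft cells (Plcb2, Rgs13, Pou2f3, Avil and Trpm5) and to other genes of low level in WT non-Paneth cells, for example 1.02, 2.09 and 1.07 CPM of Avil in WT and 47, 59.2 and 16 CPM in GRKO non-Paneth cells. They were Hmx3 (-6.97), Hmx2 (-4.66), Plcb2 (-4.21), Rgs13 (-4.03), Pik3r5 (-3.98), Ly6g6f (-3.75), Pou2f3 (-3.67), Hpgds (-3.64), Avil (-3.50) and Trpm5 (-2.94). All WT non-Paneth libraries were at 0 for Hmx3, so its fitted value depends on the prior count. Sst, the hormone somatostatin of enteroendocrine D cells, stood at -5.14.

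Among the named genes, further negative values were those of Rpl13a (-0.94), Rpl31 (-0.87), Rpl3 (-0.77), Eef1b2 (-0.80), Snhg4 (-1.23), Stmn1 (-1.03), Tk1 (-0.96), Hmgb2 (-0.87), Olfm4 (-1.08), Clca3b (-0.92), Eldr (-1.57), Ifitm3 (-1.17) and Slc19a2 (-0.89).

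Positive values among the named genes were those of Wfs1 (1.64), Syvn1 (1.11), Os9 (1.07), Edem2 (0.58), Sec31a (0.92), Sec16a (0.86), Sec24c (0.72), Copg1 (0.61), Mgat3 (1.28), Osgin1 (2.87), Cdkn1a (2.27), Atp6v0a1 (2.24), Vil1 (1.93), Errfi1 (1.33), Capn9 (1.32), Sectm1b (0.99), Krt8 (0.79) and Bhlhe40 (0.64). They describe these genes and not their lists, which differed in this test. Among ER folding genes 7 of 47 were called and among ER translocation genes 0 of 34, below the 18.7% of all genes. More than that share was called in either direction among COPI and COPII (17 of 41) and cytoskeleton and junction genes (19 of 52). The same held for glycosylation (13 of 37) and lysosome, V-ATPase and autophagy genes (16 of 55).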

How the results depend on the processing

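Of 74 named called genes, 72 to 74 kept the call with RLE factors, scaling without Lyz1 and Defa genes, DESeq2, the block and both filters, 23 with the length and GC trend removed, 2 with library totals and 0 with Paneth libraries only, and none reversed. Called genes numbered 2 with library totals (0 higher, 2 lower), 1421 with DESeq2 (782 and 639, of which 417 were called in both), 1780 without a filter (1037 and 743), 595 with at least 10 counts (225 and 370), 0 with Paneth libraries only, where 2341 had an unadjusted p under 0.05, 101 with the length and GC trend removed (64 and 37), 0 at a rate of 1%, and from 0 to 1618 with a library left out (higher 0 to 928, lower 0 to 690). The replicate numbers, whose block called 977 genes (559 and 418), did not pair the GRKO with the WT samples: deviations of same-numbered Paneth libraries correlated at 0.16, 0.22 and -0.04. Those of same-numbered Paneth and non-Paneth libraries correlated at -0.15, 0.21 and 0.47 in GRKO and at 0.44, 0.33 and 0.36 in WT. Xist and Y-linked genes, 6 in all, summed to 80.9, 194 and 102 CPM in WT Paneth and 104, 214 and 110.1 CPM in WT non-Paneth libraries. The sum was highest in replicate 2 of both, and in WT Paneth replicate 2 it was almost all Xist. The interaction, called in 2446 genes, was called in 2977 with these libraries as a block within genotype, a setting added after the data were seen, which kept the call and sign of the 10 genes with the greatest interaction.

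In the order library totals, DESeq2, Paneth libraries only, block and length and GC trend removed, ribosomal proteins called lower (42) numbered 0, 72, 0, 64 and 6, snoRNA hosts called lower (4) 0, 11, 0, 8 and 0, ER folding genes called higher (8) 0, 23, 0, 17 and 4, and COPI and COPII genes called higher (8) 0, 16, 0, 15 and 0. Without a filter the last 3 were 14, 25 and 14. With a library left out the 4 ranged from 0 to 74, 0 to 10, 0 to 13 and 0 to 13. Nr3c1 with Paneth libraries only was -2.35 (edgeR adjusted p = 0.0655), and -2.82 to -2.03 with a library left out. Mt1 was 1.198 with library totals (0.0591) and 1.13 with Paneth libraries only (0.0636), and 1.03 to 1.41 with a library left out. Sgk1 was -1.73 (0.0591) and -1.84 (0.0636) in these, -1.78 with the length and GC trend removed (0.0562), and -1.97 to -1.58 with a library left out. The causes were not tested. Medians of 6 lists changed sign in some alternative (NRF2, alpha defensins, clock, receptor targets, interferon and translation factors). The effect of depth was not tested.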
